A study of Mus musculus with 8 samples.

Results

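The genes described here are the Zfp genes expressed in mouse thymocytes, as T cells that are still developing in the thymus are called. A member is any gene symbol made of Zfp, a number and at most 1 lower-case letter whose raw counts summed to 200 or more over 8 RNA-seq libraries. The deposited files list 354 such symbols among 23420 genes. Of these, 239 reached the threshold, 115 did not, and 12 of the 115 had no count in any library. Members were thus chosen by their summed raw counts, so the levels of the members are a description and carry no test. A chromosome 17 cluster is shown apart, named by the symbols Zfp53, Zfp948, Zfp760, Zfp820, Zfp943 and Zfp945. Of these 6, Zfp948 had 79 counts and is not a member. Of the members, 35 would fall under 200 counts without their highest group, and 0 had a group with 3 counts or fewer. Those 35 passed the threshold through the group where they are high, so their differences are given without a test, and counts of called members are also given over the other 204.

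The libraries were made from total RNA of wild-type mice of 2 strains, which the library names call B6 and BALB with no substrain. In each strain, 2 libraries came from DP thymocytes and 2 from whole thymocytes. DP thymocytes carry both CD4 and CD8. The sort kept CD4+ CD8+ cells that lacked CD69, a marker of recent activation, and stained low or medium with H57, which binds the beta chain of the T cell receptor. Whole thymocytes also include earlier and later stages and non-T cells of the organ. The labels give neither the age nor the sex of the mice, nor do they say whether the 2 libraries of a group came from different animals. The p-values therefore measure the spread between these libraries. That spread may be technical, except in BALB whole thymocytes, whose 2 libraries differed in the sex-linked counts given below. In bulk RNA, fewer cells of a type and less RNA per cell cannot be told apart.

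The libraries held 2632083 to 5974684 counts in genes. Members took 1.26% to 1.37% of them, and every member had at least 5 counts in every library. The 12 DP markers summed to 14200 to 22600 CPM, the usual measure of counts relative to library size, in the 4 DP libraries and to 9800 to 14000 in the 4 whole libraries, and 0 of them were at 0 in any group. Replicate 1 of BALB DP stood apart, since Rn45s, a ribosomal RNA gene, took 3.14% of its counts and 5.11% to 8.35% of those of each other library. Replicate 1 of BALB whole thymocytes had 12313 counts of the X-linked Xist and 0 of the Y-linked Ddx3y. The other 7 libraries had 6 to 203 and 444 to 1177. Of these, the 203 Xist counts were in BALB whole replicate 2, with 725 of Ddx3y. The next highest Xist count was 24, in BALB DP replicate 1. By these counts the 2 BALB whole libraries came from different animals. The part of sex in the values of that group was not tested. Over the members, the median absolute log2 difference between the 2 libraries of a group was 0.13 in B6 DP, 0.13 in B6 whole, 0.22 in BALB DP and 0.16 in BALB whole thymocytes.

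Most mouse Zfp genes encode proteins with tandem C2H2 zinc fingers, small zinc-binding folds that each read a few bases of DNA. Many of them also carry a KRAB domain, which recruits Trim28 (KAP1). Trim28 in turn brings the H3K9 methyltransferase Setdb1, HP1 proteins and other repressors to the bound site, where they silence retroelements and some imprinted genes. KRAB zinc finger genes lie in tandem clusters that duplicate and diverge quickly, and gene content of these clusters differs between mouse strains. The shared prefix does not make a family, since some Zfp genes encode other kinds of zinc finger, such as the CCCH type of the mRNA decay factor Zfp36.

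Of the 239 members, 236 had a translated coding sequence in the annotation, and 120 of these held a stretch like the KRAB A box while 116 did not. The pattern search can miss diverged boxes, so these are called KRAB-like and other members. The median number of C2H2 fingers was 12 in KRAB-like and 7 in other members, and the most was 37 in Zfp142. Members sat on 20 chromosomes, with 54 on chromosome 7, 31 on chromosome 17, 22 on chromosome 13 and 20 on chromosome 8. At a run length of 50 bases, 168 members shared under 5% of their exon sequence with any other gene, and 17 shared over 30%. Zfp82 shared 94.4%, so its counts are uncertain. Exons of 29 members overlapped those of another gene in the files, 22 of them on the opposite strand, which the library kit does not separate.

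The promoters below belong to the 6 named cluster genes and to 3 other members, Zfp458, Zfp868 and Zfp874a, whose level differed by strain. They are shown because neighbouring genes of the cluster differed between strains in opposite directions. Each runs from 150 bases before to 30 bases after the RefSeq start in GRCm38 (mm10), 5′ to 3′ on the strand of the gene. Capitals mark the GC box GGGCGG, the ETS core CCGGAAG, the CCAAT box and the TATA box TATAAA, searched on both strands.
Zfp53 (chr17:21488838-21489017, plus strand): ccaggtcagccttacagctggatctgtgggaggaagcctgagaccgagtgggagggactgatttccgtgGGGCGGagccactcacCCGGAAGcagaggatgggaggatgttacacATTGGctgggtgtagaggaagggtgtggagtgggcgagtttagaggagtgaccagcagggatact
Zfp948 (chr17:21566828-21567007, plus strand): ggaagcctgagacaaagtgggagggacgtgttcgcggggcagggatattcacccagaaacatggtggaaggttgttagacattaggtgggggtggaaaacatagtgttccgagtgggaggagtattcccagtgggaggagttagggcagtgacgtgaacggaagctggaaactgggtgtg
Zfp760 (chr17:21707591-21707770, plus strand): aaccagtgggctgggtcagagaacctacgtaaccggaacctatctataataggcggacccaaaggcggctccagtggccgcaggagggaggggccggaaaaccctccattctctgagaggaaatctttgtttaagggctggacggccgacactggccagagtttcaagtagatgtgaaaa
Zfp820 (chr17:21845730-21845909, minus strand): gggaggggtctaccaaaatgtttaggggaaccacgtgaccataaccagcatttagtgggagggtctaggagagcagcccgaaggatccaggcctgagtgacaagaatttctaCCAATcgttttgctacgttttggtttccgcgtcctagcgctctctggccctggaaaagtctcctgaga
Zfp943 (chr17:21962409-21962588, plus strand): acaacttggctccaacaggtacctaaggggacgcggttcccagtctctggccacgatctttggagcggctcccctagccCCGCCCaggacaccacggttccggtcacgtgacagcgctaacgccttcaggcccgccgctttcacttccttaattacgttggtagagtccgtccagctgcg
Zfp945 (chr17:22867105-22867284, minus strand): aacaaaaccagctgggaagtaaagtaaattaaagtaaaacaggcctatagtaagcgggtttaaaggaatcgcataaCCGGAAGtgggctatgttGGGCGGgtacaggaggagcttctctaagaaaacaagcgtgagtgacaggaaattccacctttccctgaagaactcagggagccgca
Zfp458 (chr13:67268965-67269144, minus strand): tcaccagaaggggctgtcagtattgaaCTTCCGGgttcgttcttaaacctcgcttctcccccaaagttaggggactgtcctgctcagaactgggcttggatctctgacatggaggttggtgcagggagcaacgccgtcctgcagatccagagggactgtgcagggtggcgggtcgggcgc
Zfp868 (chr8:69625519-69625698, minus strand): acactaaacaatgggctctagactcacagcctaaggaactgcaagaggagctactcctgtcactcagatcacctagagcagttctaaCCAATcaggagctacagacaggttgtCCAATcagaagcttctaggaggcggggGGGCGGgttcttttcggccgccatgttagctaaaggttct
Zfp874a (chr13:67451595-67451774, minus strand): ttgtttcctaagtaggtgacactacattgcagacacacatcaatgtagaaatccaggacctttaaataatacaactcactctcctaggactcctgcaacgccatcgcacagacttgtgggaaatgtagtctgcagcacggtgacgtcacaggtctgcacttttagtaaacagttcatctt

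None of the 9 windows held TATAAA. Zfp53 held a GC box, an ETS core and CCAAT, and Zfp945 held a GC box and an ETS core. Zfp760 and Zfp948, which differed between strains in opposite directions, held none of the 4 motifs. CpG counts ran from 4 in Zfp868 and Zfp874a to 15 in Zfp943. Over the 198 members with a RefSeq promoter, 43.4% held the GC box, 18.2% the ETS core, 40.4% CCAAT and 3.03% TATAAA. Over all 32851 promoters of the table the shares were 31.0%, 7.12%, 27% and 8.37%. The median member window held 10 CpGs and 58.3% G or C, against 5 CpGs and 53.9% over all promoters. Members were chosen by their counts and the full set was not, and the part of expression in these contrasts was not tested. These letters come from the reference and say nothing of how the BALB sequence reads. The window of Zfp458 lies inside the span given for that gene below, not at its end, since RefSeq and GENCODE place its start differently.

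Levels of the members were modest and spread over a wide range. Per kilobase of exon, the median member stood at 6.72 CPM, with a lowest of 0.825 and a highest of 62.1, against a median of 9.65 over all genes with 200 or more counts. The KRAB-like median was 5.03 and the median of other members 8.46 CPM per kilobase. The 10 highest members held 0 KRAB-like genes, and the highest 20 held 3.

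Zfp292, a large protein with 15 fingers, led with 62.1 ± 8.87 CPM per kilobase (SD, n = 8 libraries). Zfp207, which loads Bub3 at kinetochores, followed at 58.4 ± 3.68, and Zfp106, an RNA-binding protein, stood at 41.5 ± 3.44. Zfp292 and Zfp207 overlapped in range, 51.6 to 77.4 and 55.4 to 65.5, while Zfp106 ran from 36.7 to 48.2, below both. Zfp335, which is needed for naive T cells to persist in the periphery, came after these at 32.0 ± 1.87. The next 6 were Zfp740 (30), Zfp830 (29.5), Zfp362 (28.9), Zfp148 (27.9), Zfp131 (27.8) and Zfp646 (26.7), all in mean CPM per kilobase. Neighbours among the ranks from Zfp335 to Zfp646 did not differ beyond their spread over libraries.

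Of 34 Zfp genes picked for their known roles, 31 were members. Zfp638 and Zfp683 were not among the 354 symbols listed, so their levels are not known here. Zfp57, which guards imprinted regions in early embryos, had 5 counts, whereas Zfp445, which does the same work alongside it, ran from 176 to 198 CPM. Zfp318, needed for IgD expression in B cells, ran from 49.4 to 74.1 CPM, and Zfp809, a KRAB zinc finger protein that recognises the primer binding site of retroviruses, from 31.4 to 44.5 CPM. Zfp281, a factor of GC-rich promoters, ran from 89.3 to 106 CPM. None of these 3 nor Zfp445 was called in any of the 7 comparisons.

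Strain came next. Over both populations, 6 members were higher in BALB and 18 lower (2.51% and 7.53% of 239; edgeR quasi-likelihood test, Benjamini-Hochberg adjusted p under 0.05 over all 11409 genes). Over all genes tested, 4.84% were called higher and 6.0% lower. The median log2 difference, BALB over B6, was -0.06 in members and 0.03 over all genes. The chromosome 17 stretch accounts for 2 of the higher and 3 of the lower calls, which leaves 4 and 15 among the 229 members outside it. Without the 35 members that rest on 1 group as well, 4 and 14 of 198 remained. KRAB-like members had 6 higher and 12 lower calls of 120, and other members 0 higher and 6 lower of 116. The KRAB-like calls include the 2 higher and 3 lower ones of the chromosome 17 stretch, whose members are all KRAB-like. Both classes also include called members that rest on 1 group. The difference between the classes was not tested. Leaving out B6 DP replicate 2 brought the total from 24 to 15 calls, and no other single library moved it by more than 1.5 times.

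Zfp458 showed the largest rise in BALB. It encodes a KRAB-like protein with 21 fingers from chr13:67254918-67278466 on the minus strand. Its level was 9.73 and 10.5 CPM in B6 DP, 8.75 and 5.81 in B6 whole, 33.8 and 31.8 in BALB DP and 33.3 and 35.7 in BALB whole thymocytes. Every BALB library was above every B6 library, by 3.89-fold over both populations (log2 difference 1.96 ± 0.170 SE, adjusted p = 1.04e-05). Zfp868, KRAB-like with 9 fingers at chr8:69610857-69625548 (minus strand), had 20.7 and 12.8 CPM in B6 DP, 13.7 and 16.7 in B6 whole, 47.7 and 48.5 in BALB DP and 47.6 and 40.4 in BALB whole thymocytes. The strains did not overlap, and BALB was 2.90-fold higher (1.54 ± 0.153, adjusted p = 3.91e-05).

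Zfp27, KRAB-like with 21 fingers at chr7:29893333-29906572 (minus strand), had 24.8 and 23.3 CPM in B6 DP, 28.0 and 20.8 in B6 whole, 40.8 and 42.7 in BALB DP and 43.0 and 49.2 in BALB whole thymocytes. BALB was 1.81-fold higher with no overlap (0.86 ± 0.125, adjusted p = 0.000760). Zfp605, KRAB-like with 12 fingers on chromosome 5, was 1.63-fold higher (0.70 ± 0.171, adjusted p = 0.0215), but its strains overlapped: B6 DP had 27.6 and 23.1 CPM and BALB whole thymocytes 37.9 and 25.5. The Zfp605 call was lost without B6 DP replicate 2 and without either B6 whole library, and its adjusted p was at most 0.0781 over the alternatives. Those of Zfp458, Zfp868 and Zfp27 held without each of the 8 libraries in turn.

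**Figure D1:**
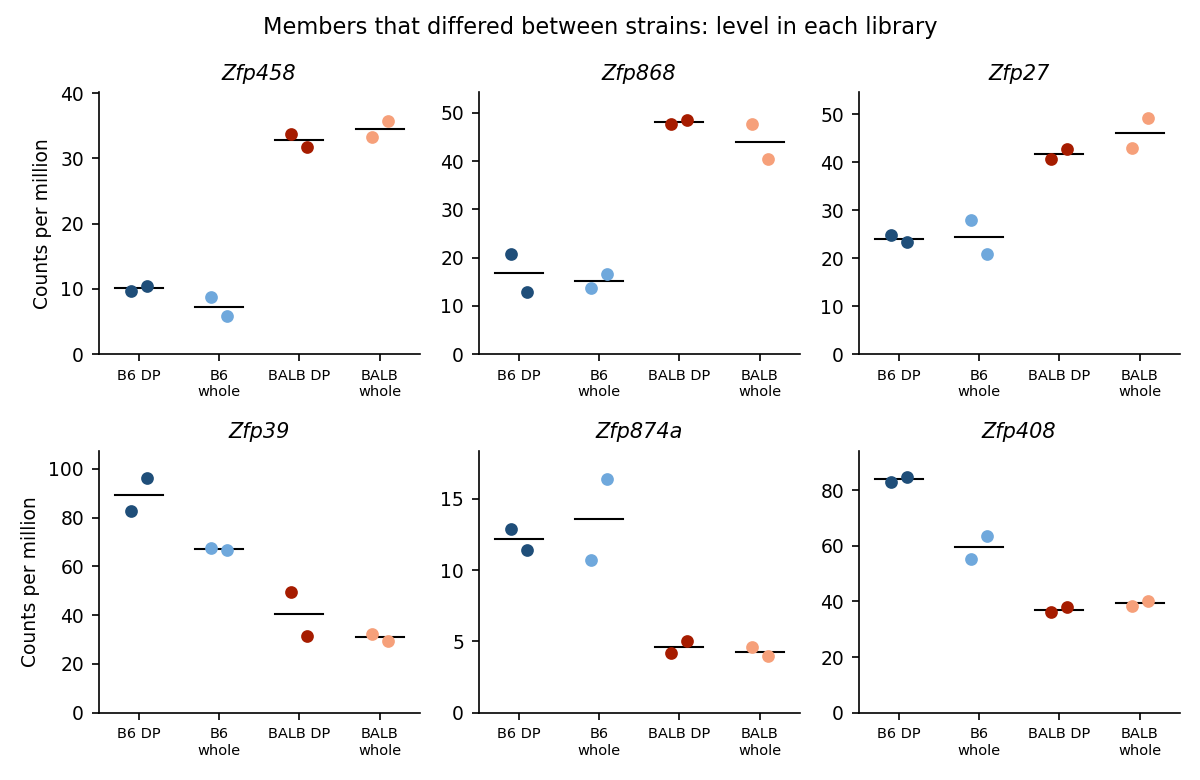
Level of 6 members in CPM (vertical axis, from 0) in the 4 groups (horizontal axis); points are libraries and the line is the mean of 2. In Zfp458, Zfp868 and Zfp27 all BALB points lie above all B6 points, and in Zfp39, Zfp874a and Zfp408 all lie below.

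Among the lower calls, Zfp39, KRAB-like with 12 fingers at chr11:58888153-58904225 (minus strand), had 82.6 and 96.2 CPM in B6 DP, 67.5 and 66.8 in B6 whole, 49.4 and 31.4 in BALB DP and 32.4 and 29.5 in BALB whole thymocytes. B6 was 2.16-fold higher with no overlap (log2 BALB over B6 -1.11 ± 0.130, adjusted p = 0.000144). Zfp874a, with 10 fingers at chr13:67424549-67451624 (minus strand), had 12.9 and 11.4 CPM in B6 DP, 10.7 and 16.4 in B6 whole, 4.20 and 5.05 in BALB DP and 4.59 and 3.99 in BALB whole thymocytes. The difference was 2.91-fold (-1.54 ± 0.218) and has no test here, since the gene reached 200 counts only through its highest group, which is a B6 group.

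Zfp408, with 11 fingers at chr2:91643669-91649791 (minus strand), had 82.9 and 84.8 CPM in B6 DP, 55.2 and 63.6 in B6 whole, 36.1 and 38.0 in BALB DP and 38.4 and 40.2 in BALB whole thymocytes. The strains did not overlap (-0.89 ± 0.126, adjusted p = 0.000651), and the gap was wider in DP (-1.18 ± 0.135) than in whole thymocytes (-0.60 ± 0.135). The test of that change in gap was not passed (interaction 0.59 ± 0.190, adjusted p = 0.297). Zfp704 had 178 and 174 CPM in B6 DP, 192 and 188 in B6 whole, 107 and 119 in BALB DP and 120 and 125 in BALB whole thymocytes (-0.64 ± 0.0734, adjusted p = 0.000132). C030034L19Rik overlaps 2525 bases of its exons on the opposite strand, and reads in that part have no strand to separate the 2 genes.

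Zfp82 and Zfp40, both KRAB-like, completed the 6 lowest p-values. Zfp82 fell from 13.2 to 17.9 CPM over the B6 libraries to 5.96 to 8.15 over the BALB libraries (-1.11 ± 0.178, adjusted p = 0.00146), with the sequence sharing given above. Zfp40, at chr17:23173869-23193252 beyond the cluster, fell from 28.6 to 34.0 to 16.7 to 20.6 CPM (-0.73 ± 0.128, adjusted p = 0.00294). The remaining lower calls outside the cluster were Zfp219 (-0.95), Zfp703 (-0.87), Zfp963 (-0.77), Zfp563 (-0.72), Zfp874b (-0.63), Zfp157 (-0.61), Zfp692 (-0.55), Zfp738 (-0.50) and Zfp866 (-0.41), as log2 BALB over B6. Zfp219, Zfp563 and Zfp692 are named here after their values were seen. Zfp703, an oncogene of breast cancer, ran from 16.2 to 25.4 CPM in B6 and 8.69 to 12.4 in BALB.

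Within DP thymocytes, 5 members were higher in BALB and 20 lower, against 6.85% and 6.14% of all genes tested. The members' median was -0.11 and 64.9% of them were negative, against a median of 0.00 and 49.1% over all genes. Within whole thymocytes, 6 were higher and 7 lower, against 1.98% and 2.61%, and the members' median was -0.01 against 0.02. Without the chromosome 17 stretch and the 35 members that rest on 1 group, the calls were 4 higher and 17 lower in DP and 4 and 6 in whole thymocytes, of 198. Between the 2 BALB DP libraries the members' median log2 difference, replicate 1 over replicate 2, was -0.02. The summed DP markers were 22600 and 21600 CPM in B6 DP and 14200 in each BALB DP library, and their part in the DP result was not tested.

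The DP count moved from 25 to 10 without B6 DP replicate 1, to 9 without B6 DP replicate 2, to 15 without BALB DP replicate 1 and to 59 without BALB DP replicate 2. The whole count moved from 13 to between 5 and 6 without any 1 of the 4 whole libraries, and to 21 without either BALB DP library. The calls that held in all 8 such fits in DP thymocytes included Zfp458 and Zfp868 among the higher, and Zfp39, Zfp408, Zfp704, Zfp827, Zfp831 and Zfp963 among the lower. In whole thymocytes they included Zfp458 and Zfp868.

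Outside the chromosome 17 stretch and without the 35 members that rest on 1 group, 21 members were called in DP and 10 in whole thymocytes. Of these, 8 were shared, which is 38.1% of the first list and 80% of the second. They were Zfp27, Zfp458 and Zfp868, higher in BALB, and Zfp39, Zfp40, Zfp82, Zfp408 and Zfp704, lower in BALB. The 2 comparisons use different libraries but share 1 fitted spread. No such overlap was computed over all genes, so these shares are not shown to be particular to the members. Zfp458 differed by 1.69 ± 0.212 in DP and 2.24 ± 0.222 in whole thymocytes, on the log2 scale. Zfp868 differed by 1.55 ± 0.219 and 1.53 ± 0.218, and Zfp39 by -1.10 ± 0.183 and -1.12 ± 0.189.

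**Figure D2:**
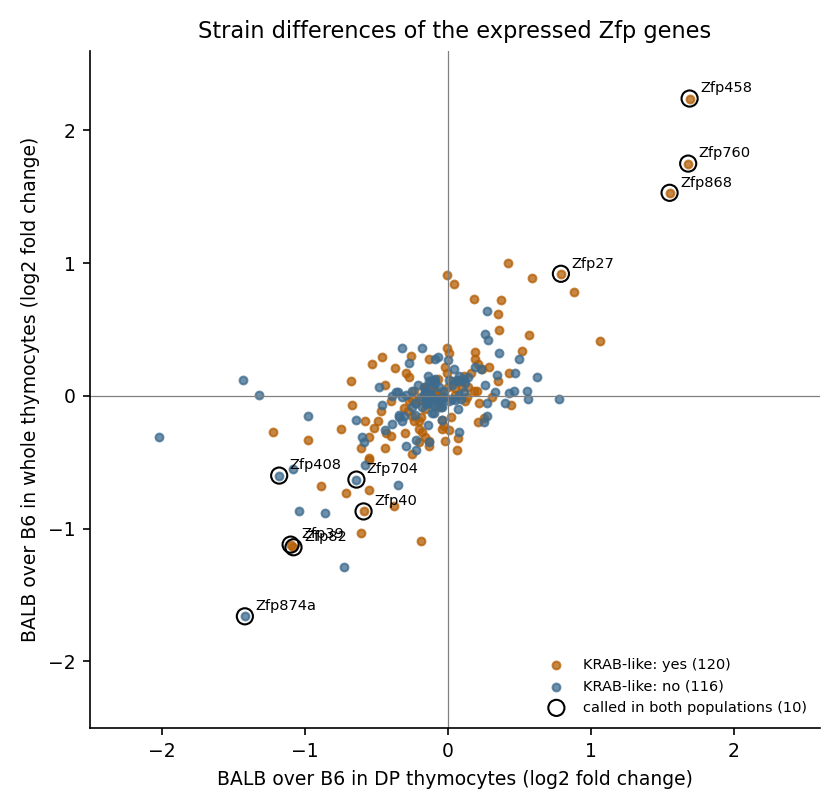
Log2 fold change of BALB over B6 in DP (horizontal axis) and in whole thymocytes (vertical axis) for the members with a translated coding sequence, coloured by the KRAB-like stretch; rings mark the 10 past the threshold in both populations, among them Zfp760 and Zfp874a, which are given without a test. The 10 ringed genes lie along the diagonal, from Zfp874a at -1.42 and -1.66 to Zfp458 at 1.69 and 2.24, and most members lie near 0 on both axes.

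Other members differed by strain in DP thymocytes with little difference in whole thymocytes. Zfp831, called lower in DP, had 17.6 and 15.8 CPM in B6 and 6.13 and 6.21 in BALB (-1.43 ± 0.230, adjusted p = 0.00175), whereas B6 whole had 55.2 and 49.3 and BALB whole 61.8 and 51.7. Zfp235, with 17 fingers, had 12.9 and 13.7 CPM in B6 DP and 5.26 and 5.44 in BALB DP (-1.32 ± 0.270, adjusted p = 0.00733), and 8.47 to 11.5 in the 4 whole libraries. The Zfp235 call was lost without B6 DP replicate 2 (adjusted p = 0.0706). Zfp827 had 28.6 and 25.6 CPM in B6 DP, 13.7 and 13.6 in BALB DP (-0.98 ± 0.192, adjusted p = 0.00625) and 28.7 to 36.2 in the whole libraries.

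Zfp622, which takes part in maturation of the large ribosomal subunit, was the exception in direction among these. It had 43.9 CPM in each B6 DP library, 71.1 and 55.9 in BALB DP, 44.2 and 38.7 in B6 whole and 42.0 and 43.4 in BALB whole thymocytes. Its DP call (0.55 ± 0.153, adjusted p = 0.0358) was kept in 1 of the 8 fits that leave out a library, the fit without BALB DP replicate 2.

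The strain difference was tested for a change between populations with an interaction term. It called 0 members by edgeR's quasi-likelihood test, against 0.123% of all genes (14 genes). An unadjusted p under 0.05 was found for 16 of the 239 members and for 1243 of all 11409 genes. DESeq2, robust empirical Bayes and the fit with no filter on low counts each called 1 member, and the fit without BALB DP replicate 2 called 14. The nearest to the threshold was Zfp831, with a difference of 1.54 ± 0.275 (adjusted p = 0.0656). Zfp235 came next at 1.33 ± 0.364 (adjusted p = 0.219), then Zfp827 at 0.83 ± 0.254 (adjusted p = 0.266). The strain values in the 2 populations are thus set side by side above without a shown difference between them.

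The chromosome 17 cluster was set apart with its strain differences already known, so these values are a description without a test. Between the start of Zfp53 at chr17:21488998 and the end of Zfp945 at chr17:22867134 lie 13 symbols of the pattern, of which 10 are members. The members in order are Zfp53, Zfp52, Zfp760, Zfp229, Zfp820, Zfp942, Zfp943, Zfp944, Zfp758 and Zfp945. Zfp948, Zfp947 and Zfp946 are not members, with 79, 44 and 189 counts. All of the 6 named genes are KRAB-like, with 16 fingers in Zfp53, 15 in Zfp948, 17 in Zfp760, 12 in Zfp820, 11 in Zfp943 and 18 in Zfp945. Sequence sharing with other genes was low, from 0.115% in Zfp948 to 4.32% in Zfp820.

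Zfp760, at chr17:21707741-21725636, was higher in BALB. It had 2.51 and 3.88 CPM in B6 DP, 4.50 and 7.01 in B6 whole, 10.9 and 10.1 in BALB DP and 21.3 and 17.7 in BALB whole thymocytes. The strains did not overlap, and the log2 difference was 1.68 ± 0.350 in DP and 1.75 ± 0.282 in whole thymocytes. With 8 to 29 counts in each B6 library, it was also the member with the largest share of its counts in 1 group, 49.8%. Zfp945 had 34.2 and 24.7 CPM in B6 DP, 28.5 and 25.6 in B6 whole, 49.2 and 36.9 in BALB DP and 48.8 and 51.7 in BALB whole thymocytes, a difference of 0.59 ± 0.196 and 0.89 ± 0.193. Its BALB libraries all lay above its B6 libraries, though BALB DP replicate 2 lay close to B6 DP replicate 1.

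The other 4 named genes were lower in BALB. Zfp53, at chr17:21488998-21510473, had 37.4 and 36.6 CPM in B6 DP, 36.0 and 33.4 in B6 whole, 28.9 and 17.5 in BALB DP and 27.3 and 25.5 in BALB whole thymocytes (-0.61 ± 0.208 and -0.39 ± 0.204). Zfp943 had 45.8 and 48.7 CPM in B6 DP, 35.5 and 37.0 in B6 whole, 31.0 and 17.9 in BALB DP and 25.6 and 19.5 in BALB whole thymocytes (-0.89 ± 0.224 and -0.68 ± 0.228). In both genes no BALB library reached a B6 library, and BALB DP replicate 2 was the lowest of all.

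Zfp820 had 7.85 and 14.2 CPM in B6 DP, 10.2 and 10.9 in B6 whole, 6.66 and 8.54 in BALB DP and 6.04 and 4.24 in BALB whole thymocytes (-0.61 ± 0.324 and -1.03 ± 0.344). Its DP groups overlapped, since B6 DP replicate 1 lay below BALB DP replicate 2. Zfp948, below the threshold, had 3.14 and 2.97 CPM in B6 DP, 4.50 and 3.63 in B6 whole, 1.23 and 1.16 in BALB DP and 1.69 and 1.5 in BALB whole thymocytes (-1.31 ± 0.503 and -1.33 ± 0.445). It rested on 3 to 18 counts a library.

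**Figure D3:**
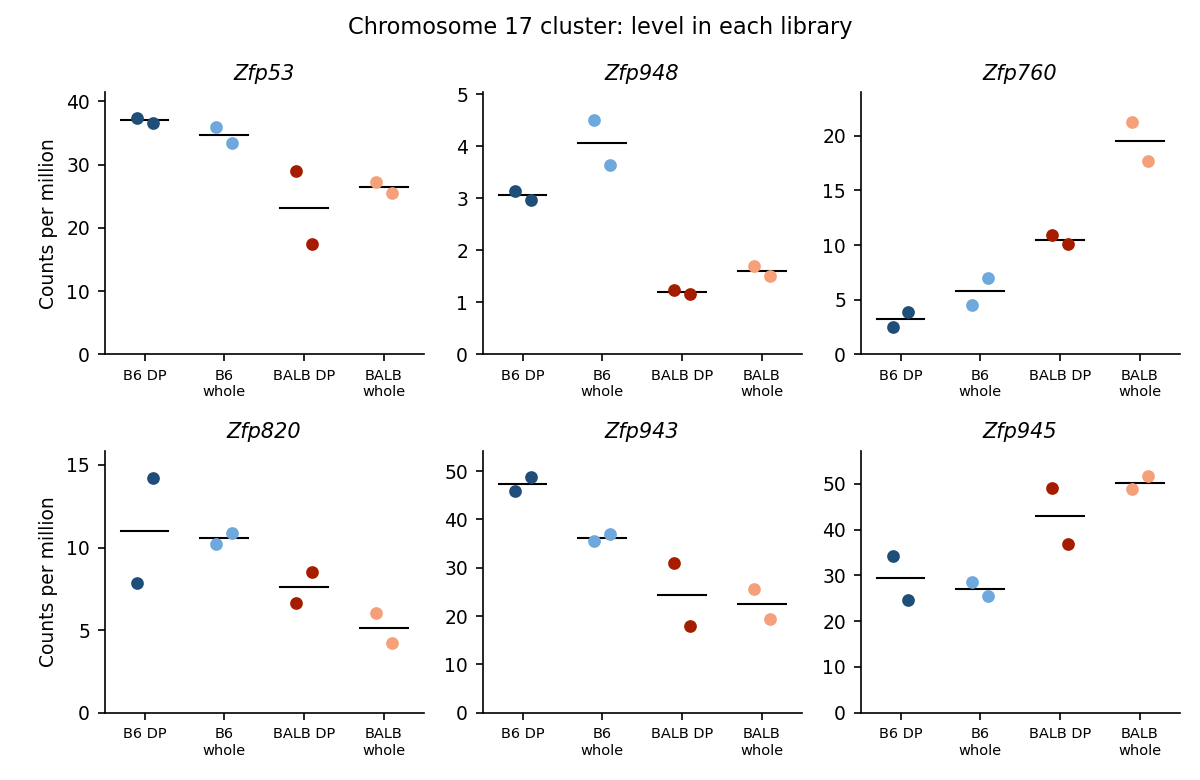
Level of the 6 named chromosome 17 genes in CPM (vertical axis, from 0) in the 4 groups (horizontal axis); points are libraries and the line is the mean of 2. BALB points lie above B6 points in Zfp760 and Zfp945 and below them in Zfp53, Zfp948 and Zfp943, while in Zfp820 the DP groups overlap.

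Both directions occurred along the stretch, and the sign changed at 5 of the 11 steps between tested neighbours in each population. Zfp760 (1.68 in DP) starts between Zfp948 (-1.31) and Zfp229 (-0.46), at 219 kb from the start of Zfp53, and Zfp945 starts beyond Zfp946. Zfp942, at chr17:21926960-21962464 on the minus strand, and Zfp943, at chr17:21962552-22071168 on the plus strand, lie head to head with starts 88 bases apart, so the window printed for Zfp943 covers both starts. They had 0.29 ± 0.169 and -0.89 ± 0.224 in DP. Zfp944 and Zfp758 also lie head to head, with starts 53 bases apart. Over the 10 members, 3 were positive and 7 negative in DP and 4 and 6 in whole thymocytes. Zfp52 (-0.19 ± 0.374 and -1.09 ± 0.363), Zfp229 (-0.46 ± 0.306 and 0.29 ± 0.319), Zfp944 (-0.24 ± 0.225 and -0.19 ± 0.235) and Zfp758 (-0.04 ± 0.167 and -0.25 ± 0.170) are given in the order DP and whole. In Zfp229 the sign differed between the populations, and the errors of Zfp944 and Zfp758 are of the size of their values. Single libraries set the sign of some of these: the DP values became 0.18 for Zfp52 and for Zfp758 without BALB DP replicate 2, and the whole value of Zfp229 became -0.14 without BALB whole replicate 2. The DP value of Zfp820 was -0.08 without B6 DP replicate 2.

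**Figure D4:**
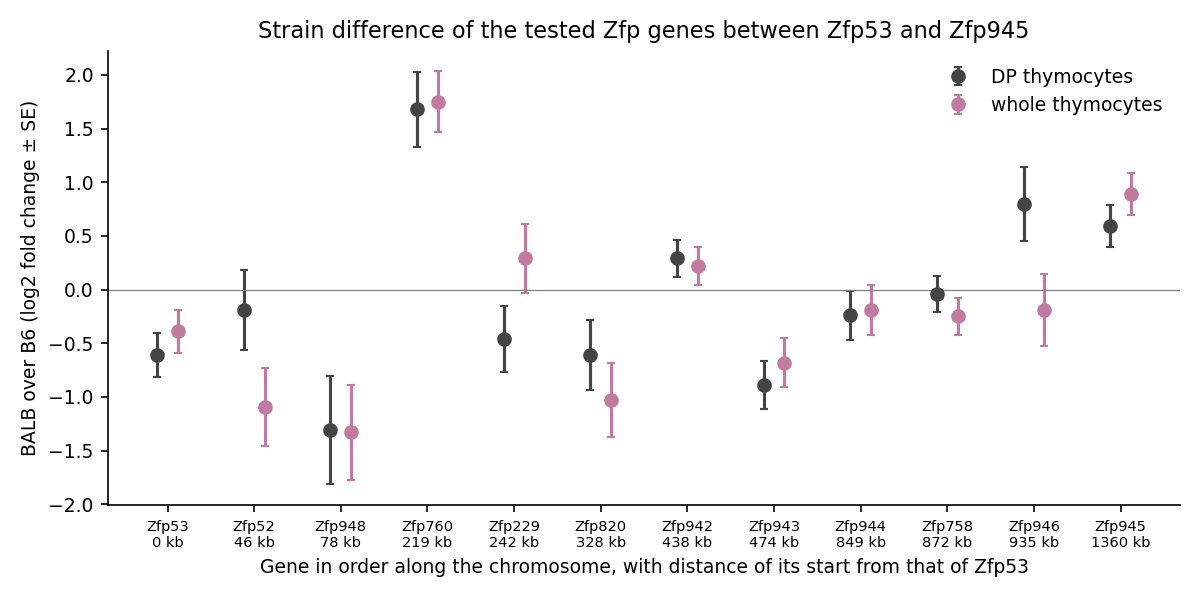
Log2 fold change of BALB over B6 with its standard error (vertical axis) for the 12 tested genes between Zfp53 and Zfp945, in chromosome order, in DP and in whole thymocytes. Zfp760 and Zfp945 lie above 0 in both populations, and Zfp53, Zfp948, Zfp820 and Zfp943 below 0 in both.

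Population was not used to set the cluster apart. Zfp760 stood 0.86 ± 0.205 higher in whole than in DP thymocytes over both strains, without a test, since its membership rests on the BALB whole group. Zfp942 was lower in whole thymocytes (-0.42 ± 0.120, adjusted p = 0.0266), with 62.8 and 49.8 CPM in B6 DP, 43.2 and 42.1 in B6 whole, 76.4 and 58.6 in BALB DP and 54.1 and 45.4 in BALB whole thymocytes. The call of Zfp942 was lost without B6 DP replicate 1, without either B6 whole library and without BALB whole replicate 2. The 8 other members of the stretch did not pass the test over both strains and ranged from -0.48 to 0.20.

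Mixed directions were also found in other runs of neighbouring members, defined as 3 or more members with successive starts within 300 kb. There were 18 such runs, holding 106 members, 75 of them KRAB-like. Outside the chromosome 17 stretch, 10 of the 99 members in runs were called by strain over both populations (10.1%). Among the 130 members outside runs it was 9 (6.92%), against 10.8% of all genes tested. The 10 include Zfp874a, which rests on 1 group and has no test here. Both sets of members also hold others that rest on 1 group. The largest run, 14 members at chr13:67038596-67827002, held Zfp458 (1.96), the most raised member, and also Zfp874a (-1.54, without a test), Zfp874b (-0.63) and Zfp738 (-0.50). In this order they shared 5.38%, 16.3%, 31.4% and 20.3% of their exon sequence with other genes. The median of the run was -0.30.

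At chr8:69610857-69791178 a run of 4 members held Zfp868 (1.54) beside Zfp963 (-0.77) and Zfp866 (-0.41). Exons of Zfp866 overlap Atp13a1 on the opposite strand, and Zfp963 shared 40.4% of its exon sequence. At chr7:29768552-30169750, 11 members held Zfp27 (0.86) and Zfp82 (-1.11). A second run on chromosome 17, 11 members at chr17:32765496-33631779, held Zfp563 (-0.72) as its only call over both populations. Another 13 of the 18 runs had 0 strain calls over both populations.

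Between populations, 12 members were higher in whole than in DP thymocytes over both strains and 15 lower (5.02% and 6.28% of 239), against 12.5% and 8.01% of all genes tested. The members' median was -0.05 and that of all genes -0.01. Without the 35 members that rest on 1 group, 6 were higher and 15 lower, of 204. With those 35 kept, KRAB-like members had 4 higher and 5 lower calls of 120, and other members 7 higher and 10 lower of 116. These include the 6 higher calls that rest on 1 group, and the difference between the classes was not tested. The count fell from 27 to 17 without B6 DP replicate 1, to 15 without B6 whole replicate 1 and to 17 without B6 whole replicate 2. Calls of Zfp831, Zfp783, Zfp827, Zfp280d, Zfp148, Zfp212, Zfp292, Zfp644 and Zfp36 held under every alternative run.

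Markers of other cells summed higher in the whole than in the DP libraries, except the endothelial and mesenchymal list, whose ranges overlapped. The Mature thymocyte markers (12 of 12 found) summed to 215 to 290 CPM in the DP libraries and 605 to 788 in the whole libraries, with Slfn1 at 0 in all DP libraries. Myeloid and dendritic cell markers (12 of 13) summed to 27.6 to 33.8 and 212 to 248 CPM. DN thymocyte markers (7 of 8) summed to 103 to 129 and 196 to 236, and B cell markers (7 of 8) to 3.88 to 11.4 and 16.7 to 26.5.

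Thymic epithelial markers (9 of 9) summed to 53.7 to 76.5 and 101 to 187 CPM, with Foxn1 at 0 in all DP libraries. Endothelial and mesenchymal markers (7 of 7) summed to 123 to 162 and 135 to 169, with Kdr, Col3a1 and Pdgfra at 0 in all DP libraries. The part of these cells in the population differences was not tested.

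Zfp831 rose most. It encodes a protein with 2 fingers of the pattern, at chr2:174643534-174710832. Its level was 17.6 and 15.8 CPM in B6 DP, 55.2 and 49.3 in B6 whole, 6.13 and 6.21 in BALB DP and 61.8 and 51.7 in BALB whole thymocytes. All whole libraries were above all DP libraries, by 3.15-fold in B6 (1.65 ± 0.174, adjusted p = 0.000123) and 9.17-fold in BALB (3.20 ± 0.213, adjusted p = 1.29e-06).

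Zfp467, known for promoting adipocyte over osteoblast fate, had 6.59 and 5.71 CPM in B6 DP, 13.5 in each B6 whole library, 0.876 and 2.72 in BALB DP and 9.42 and 12.5 in BALB whole thymocytes. The whole libraries stood 1.76 ± 0.344 higher over both strains. Zfp658, KRAB-like with 21 fingers and 202 counts in all, had 2.83 and 3.20 CPM in B6 DP, 9.25 and 8.95 in B6 whole, 2.98 and 2.72 in BALB DP and 9.90 and 9.99 in BALB whole thymocytes. It differed by 3.20-fold over both strains (1.68 ± 0.217), and the DP values of its 2 strains overlapped. Zfp467 and Zfp658 rest on 1 whole group for their membership, so neither difference has a test.

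The other rises were smaller or rested on lower levels. Zfp516, a factor of brown fat, differed by 1.37 ± 0.284, without a test for the same reason. Zfp783 rose by 0.92 ± 0.197 (adjusted p = 0.00570), although exons of Zfp783 overlap Zfp956 on the same strand. Zfp827 rose by 0.80 ± 0.173 (adjusted p = 0.00630). The remaining 6 past the threshold were Zfp287, Zfp760, Zfp213, Zfp324, Zfp568 and Zfp397, from 0.93 down to 0.30 on the log2 scale, of which Zfp287, Zfp760 and Zfp213 rest on 1 group. Zfp568, which represses a placental transcript of Igf2, is at 0.41, and Zfp213 shared 52.3% of its exon sequence with other genes.

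**Figure D5:**
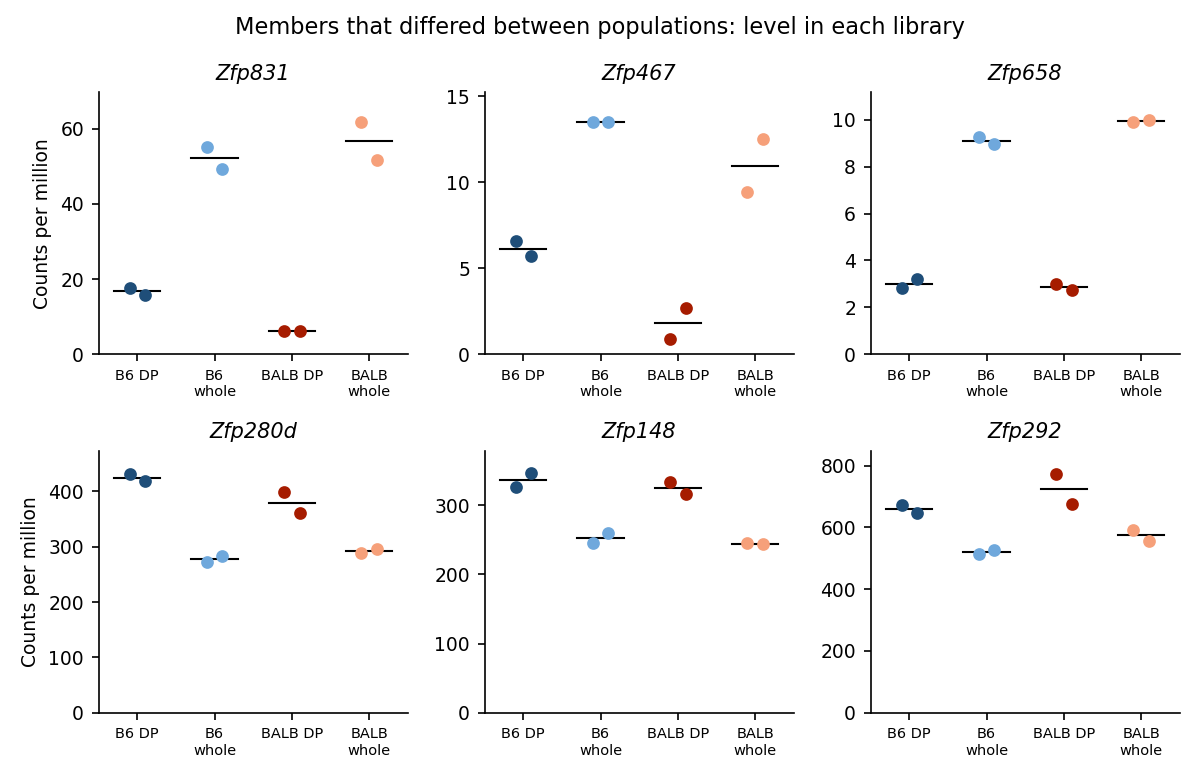
Level of 6 members in CPM (vertical axis, from 0) in the 4 groups (horizontal axis); points are libraries and the line is the mean of 2. Within each strain the whole points lie above the DP points in Zfp831, Zfp467 and Zfp658 and below them in Zfp280d, Zfp148 and Zfp292.

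The called drops were small, 1.22-fold to 1.41-fold. Zfp280d had 431 and 419 CPM in B6 DP, 273 and 284 in B6 whole, 399 and 361 in BALB DP and 288 and 296 in BALB whole thymocytes (-0.50 ± 0.0747 over both strains, adjusted p = 0.000613). Zfp148, a Krüppel-type factor of GC-rich promoters, had 327 and 346, 245 and 260, 333 and 317, and 245 and 244 CPM in the same order (-0.41 ± 0.0663, adjusted p = 0.000947). Zfp292, the most abundant member, had 673 and 648, 515 and 526, 773 and 677, and 593 and 556 CPM (-0.34 ± 0.0681, adjusted p = 0.00401). In each strain the whole libraries lay below the DP libraries for all 3 genes.

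Zfp644, a partner of the H3K9 methyltransferases G9a and GLP, fell by 0.35 on the log2 scale (adjusted p = 0.00448), with 321 to 370 CPM in DP and 254 to 285 in whole thymocytes. Zfp212, KRAB-like with 4 fingers, fell by 0.50 (adjusted p = 0.00260), from 52.7 to 65.6 CPM in DP to 38.4 to 46.2 in whole thymocytes. Zfp36, tristetraprolin, fell by 0.42 (adjusted p = 0.0115), from 78.4 to 95.7 to 57.9 to 70.3 CPM. For these 3 genes no whole library reached a DP library. The other 9 were Zfp629, Zfp942, Zfp39, Zfp654, Zfp191, Zfp955a, Zfp398, Zfp62 and Zfp180, from -0.43 to -0.28, of which Zfp955a shared 52.0% of its exon sequence.

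Within B6, 3 members were higher in whole thymocytes and 9 lower, against 6.89% and 3.27% of all genes tested. The median was -0.09 against 0.00 over all genes, and 64.4% of members were negative against 49.7%. Within BALB, 12 were higher and 8 lower, against 10.6% and 6.59%, with both medians at 0 on the log2 scale. Without the 35 members that rest on 1 group the calls were 1 higher and 9 lower in B6 and 8 and 8 in BALB. Of these 10 and 16, 6 were shared in the same direction, 60% and 37.5% of the lists: Zfp831, higher, and Zfp148, Zfp212, Zfp280d, Zfp292 and Zfp644, lower. These 2 comparisons use different libraries but share 1 fitted spread, and no such overlap was computed over all genes.

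The B6 count moved from 12 to 2 without any 1 of the 4 B6 libraries, leaving Zfp831 and Zfp280d as the calls that held in all 8 such fits, and to 25 without either BALB DP library. The BALB count moved from 20 to 13 without either B6 DP library or B6 whole replicate 1, to 12 without BALB DP replicate 1, to 47 without BALB DP replicate 2, to 7 without BALB whole replicate 1 and to 4 without BALB whole replicate 2. Zfp831 and Zfp827 were called in BALB in all 8. In B6 alone Zfp654 (-0.59 ± 0.130, adjusted p = 0.0137) and Zfp963 (-0.91 ± 0.231, adjusted p = 0.0262) were also lower, and both calls were lost without any 1 of the 4 B6 libraries.

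Trim28 and Setdb1 were examined in a list of 34 genes of chromatin repression and DNA methylation, 33 of them found. The list, called the KRAB machinery here, is wider than the partners of KRAB zinc finger proteins. Trim28 had 302 and 279 CPM in B6 DP, 301 and 307 in B6 whole, 255 and 396 in BALB DP and 304 and 322 in BALB whole thymocytes, and Setdb1 ran from 93.9 to 119 CPM. Neither passed the test in any of the 7 comparisons. In DP thymocytes 9 of the 33 were higher in BALB and 0 lower, against 6.85% and 6.14% of all genes tested, led by the chromatin remodeller Hells (1.07 ± 0.157, adjusted p = 0.00111) and the maintenance DNA methyltransferase Dnmt1 (0.50 ± 0.0947, adjusted p = 0.00533). The rest were Rbbp7, Mbd3, Cbx1, Uhrf1, Cbx5, Chd4 and Rbbp4, at 0.96 down to 0.32. The Hells call held without each of the 8 libraries in turn. The DP count fell to 1 without either B6 DP library, to 5 without either B6 whole library or BALB DP replicate 1, and rose to 18 without BALB DP replicate 2. Over both populations the strain test by edgeR called 0 of the 33, as did the test in whole thymocytes. Hells was nearest to the threshold over both populations (0.60 ± 0.175, adjusted p = 0.0504). The 0 over both populations did not hold without each library in turn.

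Between populations, Chd3 (1.31 ± 0.101, adjusted p = 4.83e-06) and Dnmt3b (2.0 ± 0.285, adjusted p = 0.000290) rose in whole thymocytes over both strains, and Atf7ip, Atrx and Pphln1 fell by 0.23 to 0.29. The calls of Chd3 and Dnmt3b held without each library in turn; those of Atf7ip, Atrx and Pphln1 did not, each being lost without the first B6 whole library and without B6 DP replicate 1. In BALB alone 2 rose and 10 fell, against 10.6% and 6.59% of all genes, and in B6 alone 2 rose and 0 fell, against 6.89% and 3.27%. The BALB count of 12 ranged from 1, without BALB whole replicate 2, to 21, without BALB DP replicate 2. The summed level of the list was 8260 to 8420 CPM in B6 DP, 10800 and 9590 in the BALB DP libraries and 8240 to 8930 in the whole libraries. Replicate 1 of BALB DP, which stood apart above, was again the highest.

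Other zinc finger genes under the same threshold were 32 Zbtb and 17 Zscan or Zkscan genes. Over both populations the strain test called 2 Zbtb genes higher and 2 lower (6.25% each, against 4.84% and 6.0% of all genes), and 0 Zscan or Zkscan genes. Over both strains the population test called 6 Zbtb genes higher and 2 lower (18.8% and 6.25%, against 12.5% and 8.01% of all genes), again with 0 of the Zscan and Zkscan genes. No test of these families against the members was made.

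The 3 members on the X chromosome were Zfp182, Zfp275 and Zfp280c. In the BALB whole libraries, of which replicate 1 carried Xist, they had 44.0 and 50.4, 47.1 and 46.4, and 75.4 and 69.9 CPM. None was called between strains in whole thymocytes. Zfp275 was called higher in whole than in DP thymocytes of BALB (0.49 ± 0.153, adjusted p = 0.0480), a call that held in 1 of the 8 fits without a library, that without BALB DP replicate 2.

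The threshold of 200 counts falls in a dense part of the distribution. Just inside it were Zfp287 with 201 counts, Zfp658 with 202, Zfp273 with 204 and Zfp429 with 208. Just outside were Zfp867 and Zfp456 with 190 each, Zfp946 with 189 and Zfp248 with 185. Zfp658 had 23 counts summed over B6 DP and 24 over BALB DP, against 74 and 81 in the whole groups.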

How the data were processed

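RNA of 8 thymus samples was sequenced. Per the labels' protocols, the sorter was a FACSAria III and the library kit, TruSeq RNA Sample Prep Kit v2, keeps no strand. Per the submitters' processing notes, the tools were HISAT2 2.2.0, HTSeq and DESeq2 1.42.1 and the build was mm10. The annotation and how reads were filtered are not stated in the labels. As deposited, each file holds raw counts per gene symbol. Reads not assigned to a gene, which the authors listed on 5 HTSeq lines, were left out. Besides reads outside genes, these lines hold reads that were ambiguous, not aligned or not unique. Of the reads accounted for, 22.6% to 30.8% were in genes and 10.1% to 11.9% were not unique, and mm10 is the genome of a B6 mouse; the effect of either on members with close copies or on BALB reads was not tested.

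The test was run with edgeR 4.0.16 in R 4.3.3 (filterByExpr, 11409 genes tested, all 239 members among them; trimmed mean of M values, factors 0.957 to 1.05; quasi-likelihood F test; common biological coefficient of variation 0.114). A model with 1 mean per group gave the 4 simple comparisons and the interaction, and a model with additive terms for strain and for population gave those over both. Genes with a Benjamini-Hochberg adjusted p under 0.05 over all genes tested were called. Errors of log2 differences are Wald standard errors from that fit. CPM uses the scaled library sizes, and levels per kilobase divide by the union of exons in GENCODE vM21, from which fingers, KRAB-like stretches, 50-base sharing and overlaps were also computed with Python 3.11.15 and Biopython 1.88. Promoters are from RefSeq. The erythroid marker list is not reported here. The code was tested on simulated data.

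Members, lists and tests were chosen with earlier results of these data known. Named genes were the cluster, the called members with the smallest p (up to 8 per direction, 6 for comparisons over both), the 10 highest per kilobase, the 4 on each side of the threshold, 34 genes with known roles, those on the X chromosome, runs and the KRAB machinery. Genes most like the cluster in pattern were not sought, since only 4 group means exist. Alternatives were DESeq2 1.42.0 size factors and Wald test, no filter, a strict filter, robust empirical Bayes, a replicate block, each library left out, 2 libraries left out together, only the 4 libraries compared, and thresholds of 100 and 400 counts.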

Additional observations from a re-analysis of the deposited data

How the results depend on the processing

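The counts of members called depended on the fit more than the direction of the values. The alternatives were followed for 109 single-gene values, which hold no interaction value and no gene of the KRAB machinery. None of these given with a test changed sign in any alternative. Under the alternatives 1434 values stayed the same and 220 no longer passed the threshold. Staying the same meant keeping the side of the threshold. For the chromosome 17 strain values given without a test, it meant staying within the spread between replicates. Another 24 of those chromosome 17 values moved by more than that spread. Of the 10 highest members per kilobase, 5 were among the 10 highest in CPM without length. The DP strain count of 25 became 16 with the DESeq2 Wald test and 13 with only the 4 libraries compared, and 9 to 59 leaving out 1 library. The whole strain count of 13 became 22 with no filter and 22 with only the 4 libraries compared, and 5 to 21 leaving out 1 library. The B6 population count of 12 became 4 with the strict filter, 4 with the DESeq2 Wald test, 37 with only the 4 libraries compared and 39 without BALB DP replicate 1 and BALB whole replicate 1, and 2 to 25 leaving out 1 library. The BALB population count of 20 became 9 with the strict filter, 9 with the DESeq2 Wald test and 6 with only the 4 libraries compared, and 4 to 47 leaving out 1 library. The interaction count of 0 became 1 with no filter, 1 with the DESeq2 Wald test and 1 with robust empirical Bayes, and 0 to 14 leaving out 1 library. The strain count over both populations, 24, was 15 to 28 leaving out 1 library, and the population count over both strains, 27, was 15 to 34, and 12 with the strict filter, which tested 188 members. Where a group is left with 1 library, that library is assumed to vary like the others. Except for the strict filter, which leaves out members, the cause of these changes was not tested.

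The labels number the replicates 1 and 2 in every group without saying what a number shares, and the correlations of same-numbered deviations ran from -0.038 to 0.057. With a replicate block the counts in the same order were 19, 15, 10, 16, 0, 22 and 25. A threshold of 100 counts gave 264 members and one of 400 gave 188. Members with few counts are the least precise: a library with 8 counts, such as Zfp760 in B6 DP replicate 1, cannot show small differences.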
